A study of Mus musculus with 17 samples.

Results

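Collagen genes were described in the choroid plexus of mice treated with dextran sodium sulfate (DSS), an agent that causes colitis. The members were the protein-coding mouse genes of the GENCODE annotation with a symbol made of Col, a number, the letter a and a number, such as Col4a1, and with at least 10 reads summed over the 17 libraries. This rule took 44 of the 55487 genes in the count table, and no gene with such a symbol fell below the read minimum. Of the 44, 11 code for chains of fibrillar collagens, 6 for chains of type IV collagen of basement membranes, and 27 for other types. The filter on low counts by group (filterByExpr of edgeR) kept 40 of the 44 for testing, and Col6a4, Col10a1, Col24a1 and Col28a1 did not. The 40 are the members tested, not all members.

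The tissue was whole choroid plexus dissected from the lateral ventricles of C57BL/6 mice, with no transgene or mutant allele named in the labels. Group CTRL (n = 5) had no DSS, T1 (n = 4) had 1 day of DSS, T3 (n = 4) had 3 days, and T5 (n = 4) had 2 days of water after 3 days of DSS. The labels give no age, sex or DSS dose, and do not say whether the libraries of a group came from separate animals, so p-values measure only the spread between these libraries, which may be technical. Values below are normalised read counts (CPM) scaled by the trimmed mean of M values (TMM). Levels of single genes are set against each other per kb of exon. Exon length is that of all annotated exons of a gene joined over its transcripts, which can exceed the length of a single transcript. Sums and shares over several genes use CPM not scaled by length, so longer genes count for more in them.

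Collagens are proteins of the extracellular matrix built from 3 chains wound into a triple helix. Some types need chains from different genes. Fibrillar collagens form the load-bearing fibrils of connective tissue, type IV collagen forms the sheet-like network under epithelium and around capillaries, and the other types decorate fibrils, form hexagonal or beaded networks, or span the cell membrane. In the choroid plexus a secretory epithelium rests on a basement membrane over a stroma of fibroblasts and leaky capillaries, and each of these cell types makes its own set of collagens.

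The 6 type IV genes lie in head-to-head pairs, with the starts of 2 genes side by side on opposite strands. On GRCm38, Col4a1 (chr8:11198423-11312826, minus strand) and Col4a2 (chr8:11312805-11449287, plus strand) overlap by 22 bases at their starts. Col4a4 (chr1:82448423-82586849, minus strand) and Col4a3 (chr1:82586921-82722059, plus strand) are 71 bases apart. Col4a6 and Col4a5 on the X chromosome are 1308 bases apart. Col8a1 (chr16:57624258-57754737, minus strand) and Col8a2 (chr4:126286793-126314330, plus strand), which code for the partner chains of type VIII collagen, are not neighbours. Below are the stretch between Col4a4 and Col4a3 and the bases just upstream of Col8a1 and Col8a2. They are shown because the ratio within each pair varied little across the libraries, as did the levels of Col8a1 and Col8a2. All are from the RefSeq sequence of GRCm38.p6, 5′ to 3′ on the strand of the gene named first, outside the exons of the annotation. Capitals mark the letters of a GC box, GGGCGG or on the other strand CCGCCC, and matches can overlap.
Col8a1, chr16:57754738-57754987, minus strand: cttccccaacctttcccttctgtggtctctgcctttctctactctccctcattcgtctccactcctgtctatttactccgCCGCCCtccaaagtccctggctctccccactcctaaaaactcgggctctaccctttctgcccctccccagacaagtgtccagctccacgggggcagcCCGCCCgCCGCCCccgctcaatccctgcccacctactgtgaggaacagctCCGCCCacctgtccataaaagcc
Col8a2, chr4:126286544-126286792, plus strand: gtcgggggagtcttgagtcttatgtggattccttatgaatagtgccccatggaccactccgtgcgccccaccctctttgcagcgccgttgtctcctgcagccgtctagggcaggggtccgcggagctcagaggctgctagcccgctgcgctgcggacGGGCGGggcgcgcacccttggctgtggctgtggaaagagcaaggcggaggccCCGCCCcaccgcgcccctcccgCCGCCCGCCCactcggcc
Col4a4 to Col4a3, chr1:82586850-82586920, minus strand: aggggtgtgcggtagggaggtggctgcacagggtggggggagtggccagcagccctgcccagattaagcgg

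The Col8a1 and Col8a2 stretches each hold 4 GC boxes, and the 71 bases between Col4a4 and Col4a3 hold none. The first 2 have a G and C content of 60.8% and 69.9%. In RefSeq promoter windows of 250 bases upstream, a GC box stands in 32.7% of 32851 windows. A CCAAT box (CCAAT or ATTGG) stands in 33.8% of them and a TATA box (TATAAA or TTTATA) in 12.4%. Of the 35 collagen genes with an entry, 21 had a GC box, 13 a CCAAT box and 5 a TATA box. A gene was counted once if any of its windows matched, so gene counts and window shares cannot be compared. A match describes the letters in the window and does not show that a factor binds there.

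Libraries held 8875921 to 26839417 counts. The tissue label fitted the data: markers of choroid plexus epithelium such as Ttr summed to 98345 to 223053 CPM, with all 12 markers present in every library. Some libraries stood apart, which was known from earlier results of these data. T3 replicate 4, the column SCA_32, had 704 CPM of meningeal fibroblast markers against 41.4 to 89.8 in the other T3 libraries, 575 CPM of mural cell markers against 68.1 to 82.97, and 852 CPM of fibroblast markers against 501 to 578. T5 replicate 1 was the next highest in the first 2 of these lists, at 439 and 333 CPM, and the highest of all libraries in fibroblast markers, at 913 CPM. T1 replicates 2, 3 and 4 and T3 replicate 4 also share title numbers of 28 and above. No batch is named in the labels, and of T1 only replicate 1 has a lower number. The DSS contrast at T1 and whatever these libraries share can therefore be set apart only through T1 replicate 1 and T3 replicate 4, each alone of its kind in its group. In bulk tissue, fewer cells of a type and less RNA per cell cannot be told apart.

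In control tissue, 3 genes of network-forming and fibril-associated types led all collagens. Per kb of exon, Col9a3 was at 396 ± 59.1 CPM, Col8a2 at 126 ± 30.4 and Col8a1 at 64.2 ± 9.61 (mean ± SD, n = 5). Their CTRL ranges did not overlap each other or that of any lower gene. Together these 3 genes made up 80.9 to 87.4% of all collagen CPM in CTRL. All collagens together took 0.251 to 0.321% of the counts of a CTRL library. Col18a1, which codes for the basement membrane proteoglycan collagen that releases endostatin, followed at 10.7 ± 1.68 CPM per kb. Col17a1, which codes for a transmembrane collagen of hemidesmosomes, was at 7.23 ± 2.38. Col1a2 was the highest fibrillar gene at 6.04 ± 1.36 and Col4a5 the highest type IV gene at 4.68 ± 1.17. From Col18a1 down, the CTRL range of each gene overlapped that of the gene next in order, so the order below the first 3 is not resolved between neighbours.

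**Figure D1:**
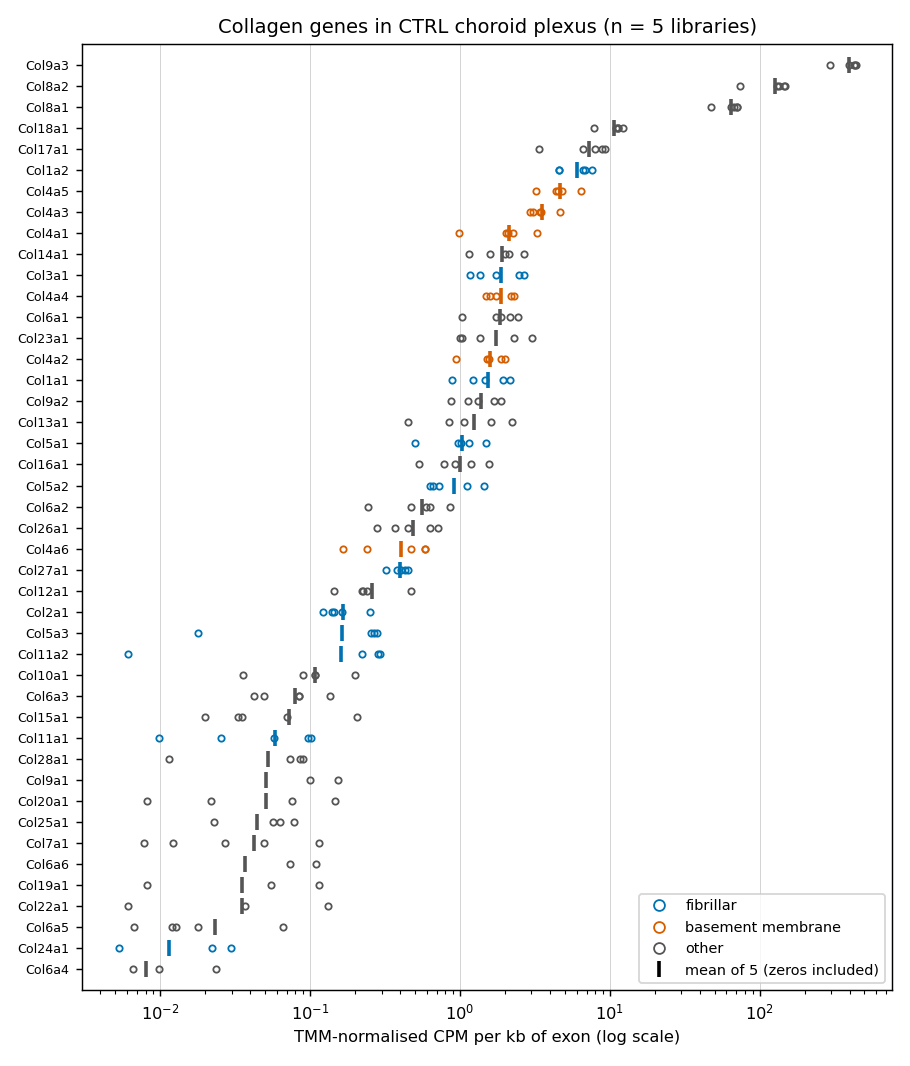
Level of each of the 44 collagen genes in CTRL choroid plexus, in TMM-normalised CPM per kb of exon on a log axis, with circles for the 5 libraries (values of 0 cannot be drawn), bars for means with zeros included, and colours for the class. Col9a3, Col8a2 and Col8a1 stand apart at the top, with means of 396, 126 and 64.2.

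Type IX and type VIII chains differed in how far apart the levels of partner chains lay. Type IX collagen, best known from cartilage, is assembled from the chains of Col9a1, Col9a2 and Col9a3, but only Col9a3 (chr2:180597790-180622189) was high here. Col9a2 was at 1.38 ± 0.415 CPM per kb in CTRL, and Col9a1 at 0.0510 ± 0.0725, with no read in 7 of the 17 libraries. The ratio of Col9a3 to Col9a2 per kb ran from 33.6 in T3 replicate 4 to 541 in T5 replicate 4. Col9a3 shares 234 bases, 6.07% of its exon length, with Tcfl5 on the other strand, which had 143 reads over all libraries, and the strand setting of the counting is not known. The ratio of Col8a1 to Col8a2 per kb stayed between 0.445 and 0.648 over the 17 libraries, the narrowest range of the 8 chain ratios computed. The levels varied little too, 1.66-fold for Col8a1 and 2.06-fold for Col8a2, against 1.46-fold for the ratio. Its narrow range therefore says little about whether the 2 genes move together.

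Col9a3 was at 1133, 1656, 1683, 1632 and 1532 CPM in the CTRL libraries, 1431, 2088, 1861 and 1629 in T1, 1609, 1511, 1510.0 and 1513 in T3, and 1432, 956, 1115 and 1369.8 in T5. Its levels overlapped between every pair of groups but T3 and T5. Col8a2 was at 330.4, 651, 665, 582 and 609 CPM in the CTRL libraries, 665, 645, 671 and 479 in T1, 586, 682, 629 and 581 in T3, and 539, 476, 529 and 604 in T5. Col8a1 was at 373, 528, 557, 551 and 505 CPM in the CTRL libraries, 543, 609, 521 and 430.2 in T1, 509, 618, 529.9 and 454 in T3, and 584, 443, 443 and 537 in T5. CTRL replicate 1 was the lowest of all libraries in both type VIII genes and the lowest of CTRL in Col9a3.

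Among the type IV genes, Col4a3, Col4a4 and Col4a5, whose chains form the network of the kidney glomerulus and a few other basement membranes, were at 3.52 ± 0.682, 1.87 ± 0.363 and 4.68 ± 1.17 CPM per kb in CTRL. Col4a1 and Col4a2, whose chains form the network found in most basement membranes and around vessels, were at 2.13 ± 0.810 and 1.58 ± 0.415. Col4a6 was the lowest at 0.407 ± 0.194. The CTRL ranges of Col4a3 and Col4a5 overlapped, as did those of Col4a1, Col4a2 and Col4a4. That of Col4a1, 0.992 to 3.27 CPM per kb, also overlapped those of Col4a3, from 2.95, and Col4a5, from 3.23.

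After 1 day of DSS, the type IV pair Col4a1 and Col4a2 and the fibrillar gene Col1a2, which codes for one of the chains of type I collagen, had higher estimates than in CTRL, and the 3 most abundant collagen genes were close to it. The edgeR test over all libraries called none of the 40 collagen genes and none of the 16851 genes tested (0.0%) at an adjusted p of 0.05. Without T3 replicate 4, whose spread enters the fit, the same test called Col1a2, Col4a1 and Col4a2 as higher at T1, with 717 of 16887 genes called (4.25%).

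Col4a1 was at 24.4, 15.05, 15.6, 17.002 and 7.40 CPM in the CTRL libraries, 13.6, 46.7, 110.1 and 51.1 in T1, 11.9, 14.6, 11.9 and 40.8 in T3, and 16.8, 21.97, 31.2 and 14.9 in T5. Col4a2 was at 13.3, 10.4, 9.97, 12.4 and 6.22 CPM in the CTRL libraries, 7.14, 31.4, 59.5 and 47.4 in T1, 7.42, 8.26, 7.99 and 26.7 in T3, and 13.4, 11.1, 20.3 and 10.1 in T5. T1 replicates 2, 3 and 4 lay above every CTRL library in both genes, while T1 replicate 1 lay within the CTRL range, so the groups overlapped. The log2 fold change was 1.80 ± 0.51 for Col4a1 and 1.80 ± 0.50 for Col4a2 (± approximate SE; edgeR adjusted p = 0.138 for both). Without T3 replicate 4 both were 1.81, with edgeR adjusted p = 0.0432 and 0.0366. In the fit without the 4 libraries of high title number, in which T1 is replicate 1 alone, the estimates were -0.24 and -0.57. With a term for these 4 libraries they were 0.05 and -0.16.

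Col1a2 was at 82.4, 84.4, 56.98, 94.1 and 57.3 CPM in the CTRL libraries, 123, 122, 128 and 175 in T1, 72.3, 98.04, 89.04 and 263 in T3, and 134, 93.8, 96.5 and 65.9 in T5. All 4 T1 libraries were above all 5 CTRL libraries, which held for 2.9% of the genes tested. Its log2 fold change at T1 was 0.87 ± 0.32 (edgeR adjusted p = 0.16), 0.88 ± 0.20 without T3 replicate 4 (edgeR adjusted p = 0.0346), and 0.69 in the fit without the 4 libraries of high title number. With a term for these libraries it was 0.21 (edgeR adjusted p = 0.999). Col1a1, the partner chain, was at 12.6, 8.07, 5.80, 14.2 and 9.59 CPM in the CTRL libraries, 10.8, 19.5, 19.7 and 25.8 in T1, 7.99, 9.50, 11.8 and 49.2 in T3, and 28.9, 21.1, 22.2 and 6.11 in T5. Its T1 and CTRL libraries overlapped, with a log2 fold change of 0.92 ± 0.53 (edgeR adjusted p = 0.323). The summed CPM of the fibrillar genes was 98.9 to 159.8 in CTRL and 170.1 to 288 in T1, without overlap and with Col1a2 as the largest contributor. No test of the sum is given.

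Col25a1, which codes for a transmembrane collagen of neurons, was the other member whose T1 and CTRL libraries did not overlap. Col25a1 was at 0.734, 0, 0.294, 0.819 and 1.01 CPM in the CTRL libraries, 1.02, 1.63, 2.40 and 2.37 in T1, 0.0963, 0.698, 1.19 and 15.9 in T3, and 2.88, 4.02, 1.42 and 0.989 in T5. Its log2 fold change at T1 was 1.72 ± 1.06 (edgeR adjusted p = 0.351). Neuron markers summed to 17.1 to 103.6 CPM in CTRL and 105.2 to 360 in T1 with 8 of 8 markers higher, and their part in this difference was not tested.

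Col7a1, which codes for the anchoring fibrils that tie basement membrane to stroma, had the largest T1 estimate, at low levels. Col7a1 was at 0.508, 0.0807, 1.18, 0.126 and 0.280 CPM in the CTRL libraries, 0.918, 1.87, 3.43 and 3.73 in T1, 0.578, 0.969, 0.274 and 1.20 in T3, and 0.266, 0, 0.213 and 0.582 in T5. T1 replicate 1 was below the highest CTRL library, and the log2 fold change was 2.48 ± 0.75 (edgeR adjusted p = 0.138). In the Col4a4 and Col4a3 pair, the T1 estimates were 0.71 ± 0.25 and 0.64 ± 0.26 (edgeR adjusted p = 0.154 and 0.186). Col4a4 was at 15.9, 18.6, 24.5, 16.9 and 23.3 CPM in the CTRL libraries, 18.6, 38.8, 45.98 and 25.95 in T1, 20.8, 19.7, 18.04 and 24.4 in T3, and 21.2, 10.2, 11.3 and 17.5 in T5. Col4a3 was at 34.7, 29.4, 46.6, 30.5 and 34.4 CPM in the CTRL libraries, 28.9, 57.8, 87.6 and 43.9 in T1, 35.9, 33.1, 27.7 and 44.8 in T3, and 29.7, 17.2, 20.2 and 30.99 in T5. T1 replicate 1 lay within the CTRL range in Col4a4 and just below it in Col4a3, and T1 replicate 4 lay within it in Col4a3. Col4a3 shares 563 bases, 5.65% of its exon length, with the non-coding gene C430014B12Rik on the other strand, which had 320 reads over all libraries.

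Across classes, 38 of the 40 tested genes had a positive log2 fold change at T1, against 57.7% of all genes. The 10 fibrillar and 6 type IV genes tested were all positive, with medians of 0.75 and 0.77, and 22 of the 24 other genes were, with a median of 0.67. The median of all genes was 0.08. At an unadjusted p under 0.05, edgeR took 9 collagen genes as higher (9.43% of all genes) and none as lower (11.7%). These were Col1a2, Col4a1, Col4a2, Col4a3, Col4a4, Col5a1, Col7a1, Col13a1 and Col18a1. Col18a1 was at 55.2, 79.3, 86.04, 77.3 and 79.3 CPM in the CTRL libraries, 55.003, 133, 133 and 99.1 in T1, 64.7, 90.9, 69.6 and 112 in T3, and 74.98, 71.6, 95.4 and 65.9 in T5. T1 replicate 1 was the lowest of all 17 libraries in Col18a1 and the other T1 libraries were above every CTRL library. Col5a1, which codes for a type V chain that starts fibrils, was at 12.7, 8.19, 9.76, 8.69 and 4.26 CPM in the CTRL libraries, 6.94, 17.5, 26.2 and 19.5 in T1, 8.09, 6.32, 6.71 and 25.4 in T3, and 13.3, 8.42, 8.51 and 6.80 in T5. Its T1 and CTRL libraries overlapped. Col9a3, Col8a2 and Col8a1 had T1 estimates of 0.20 ± 0.15, 0.12 ± 0.17 and 0.06 ± 0.14 (edgeR adjusted p = 0.448, 0.704 and 0.809).

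The T1 pattern depended on which libraries and tools entered. DESeq2 called the same 3 genes as edgeR did without T3 replicate 4 (9.18% of 9001 genes), and limma-voom with sample quality weights called 12 collagen genes (24.2% of all genes). Without T1 replicate 1, edgeR called 7 collagen genes: Col4a1, Col4a2, Col4a3, Col4a4, Col7a1, Col13a1 and Col18a1. It called 2203 genes in all. The fit of all libraries tested 16851 genes, and the number tested without T1 replicate 1 is not given. Col13a1, which codes for a transmembrane collagen, was at 10.3, 3.87, 7.44, 4.91 and 2.07 CPM in the CTRL libraries, 4.90, 13.2, 16.1 and 15.9 in T1, 4.72, 5.19, 2.83 and 11.8 in T3, and 7.62, 7.01, 7.66 and 5.87 in T5. T1 replicates 2, 3 and 4 were the highest of all libraries in Col13a1, and T1 replicate 1 lay within the CTRL range. Without the 4 libraries of high title number, where T1 is a single library, the medians were -0.12, -0.18 and -0.26 for fibrillar, type IV and other genes, and with a term for these libraries -0.41, -0.03 and -0.45. Endothelial markers summed to 119.95 to 269 CPM in CTRL and 236 to 553 in T1, with 12 of 12 markers higher, a median of 1.13 and none at 0 in any library. Mural cell markers summed to 56.02 to 153 CPM in CTRL and 103 to 209.6 in T1, with 11 of 11 higher and a median of 1.05. T1 replicate 1 had the lowest T1 sum in both lists. Meningeal fibroblast markers summed to 20.6 to 92.9 CPM in CTRL and 50.6 to 144 in T1, with 9 of 9 higher and a median of 0.80. Fibroblast markers summed to 449 to 602 CPM in CTRL and 561 to 637 in T1, with 11 of 12 higher and a median of 0.29, and T1 replicate 1 had the highest T1 sum. Border macrophage markers summed to 43.2 to 78.9 CPM in CTRL and 75.3 to 149.5 in T1, with 8 of 8 higher and a median of 0.76. Slc22a6 of the meningeal list and Cd163 of the macrophage list had no read in some libraries. The part of these cell types in the type IV and fibrillar differences was not tested. With the mean of the neuron, astrocyte and oligodendrocyte markers as a covariate, the medians were 0.36, 0.78 and 0.28.

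**Figure D2:**
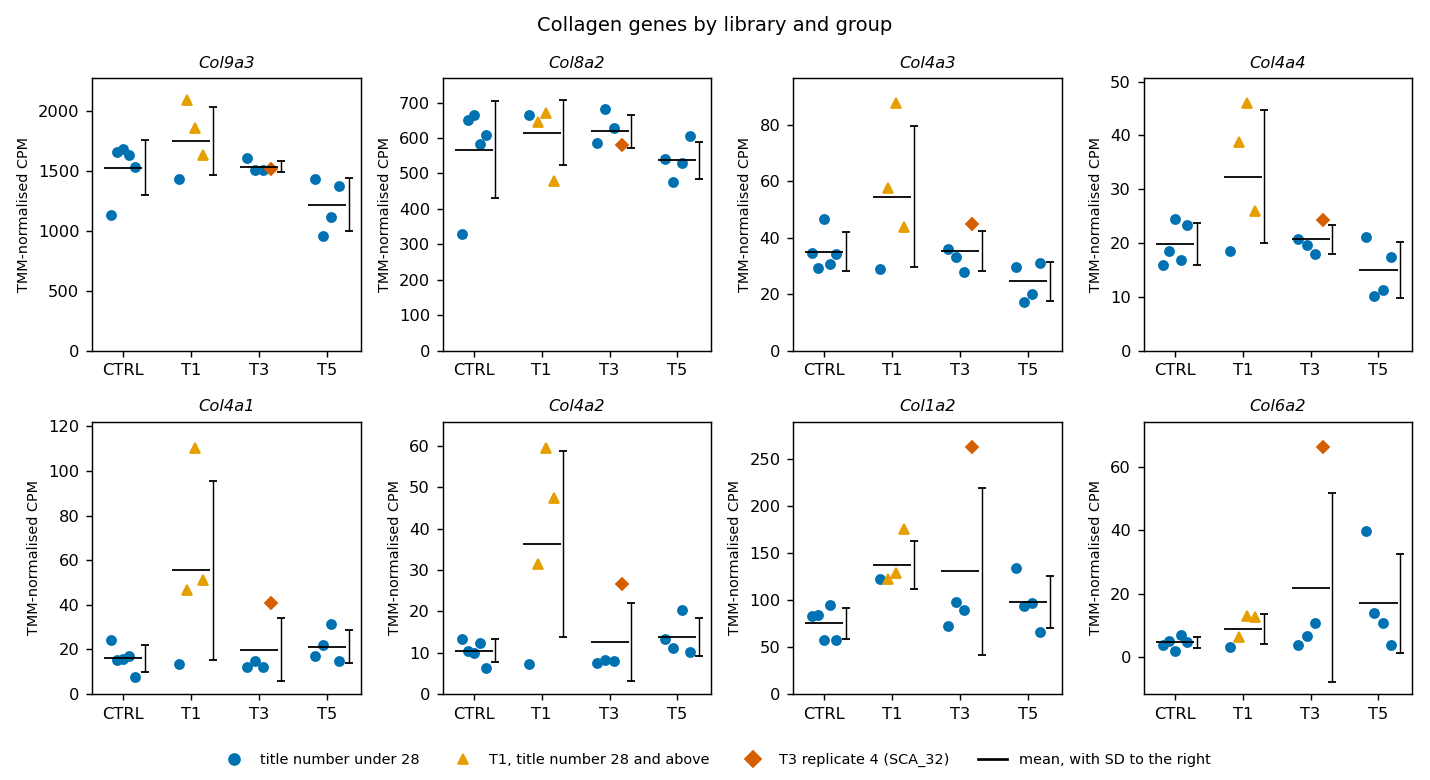
TMM-normalised CPM of 8 collagen genes in each library by group (CTRL n = 5, others n = 4), with the mean as a line and the SD as a bar to its right, triangles for T1 libraries and a diamond for T3 replicate 4, all of title number 28 and above. In Col4a1 and Col4a2 the 3 triangles lie above every other T1 and CTRL library, and in Col1a2 and Col6a2 the diamond is the highest of all 17, at 263 and 66.4 CPM.

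After 3 days of DSS, the higher collagen levels came from 1 library. Of the 40 genes tested, T3 replicate 4 was the highest T3 library in 33 (41.7% of all genes) and the highest of all 17 libraries in 15 (9.16%). edgeR called none of the 40 genes and none of the 16851 genes (0.0%). At an unadjusted p under 0.05, 5 collagen genes were higher (3.2% of all genes) and none lower (1.77%): Col25a1, Col6a2, Col1a2, Col6a1 and Col9a2. DESeq2 called 2 genes (0.0119%) and limma-voom called none, with no collagen gene among them.

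Col6a1 and Col6a2, which code for chains of type VI collagen, the collagen of beaded microfibrils around cells, were among these. Col6a3, of the same type, was not. It was at 0.950 ± 0.450 CPM in CTRL, with a T3 estimate of 1.22 ± 0.81, or -0.14 without T3 replicate 4. Col6a2 was at 3.95, 5.28, 2.02, 7.12 and 4.93 CPM in the CTRL libraries, 3.27, 6.39, 13.02 and 12.8 in T1, 3.85, 6.78, 10.7 and 66.4 in T3, and 39.7, 13.9, 10.7 and 3.90 in T5. Col6a1 was at 10.7, 7.66, 4.50, 9.45 and 8.24 CPM in the CTRL libraries, 6.74, 15.1, 14.9 and 21.9 in T1, 9.25, 7.29, 10.2 and 75.99 in T3, and 33.5, 16.3, 14.2 and 3.31 in T5. In both genes T3 replicate 4 was the highest of all libraries and T5 replicate 1 came next. The log2 fold changes at T3 were 2.24 ± 0.80 and 1.67 ± 0.70 (edgeR adjusted p = 0.911 for both), and 0.62 and 0.13 without T3 replicate 4.

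Fibrillar genes depended on the same library. Col3a1, which codes for the type III collagen of soft tissue and vessel walls, was at 26.2, 24.3, 11.4, 17.2 and 13.3 CPM in the CTRL libraries, 18.6, 29.2, 28.9 and 37.2 in T1, 19.7, 17.3, 16.03 and 106 in T3, and 53.03, 29.6, 26.3 and 10.8 in T5. Its T3 estimate of 1.11 ± 0.56 turned to -0.08 without T3 replicate 4, and that of Col1a1 from 0.97 ± 0.52 to -0.04. Col1a2 went from 0.80 ± 0.32 to 0.20 and Col25a1 from 2.99 to 0.29. Neuron markers summed to 447 CPM in T3 replicate 4 and to 24.9 to 46.1 in the other T3 libraries, and their part in the Col25a1 value was not tested. For Col4a1 and Col4a2 the estimates were 0.32 ± 0.51 and 0.27 ± 0.50, and -0.32 and -0.41 without it. No adjusted p of these genes was below 0.911 with this library or 0.996 without it (edgeR).

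At T3 the medians of fibrillar, type IV and other genes were 0.32, 0.30 and 0.49, against 0.02 over all genes, with 33 of 40 positive (52.7% of all genes). Without T3 replicate 4 they were -0.14, -0.22 and -0.01, against -0.03, and 15 of 39 were positive (44.4%). Without this library edgeR still called none, and at an unadjusted p under 0.05 Col5a3 alone was lower (2.1% of all genes) and none was higher (1.3%). Fibrillar genes summed to 477 CPM in T3 replicate 4 and to 121 to 148 in the other T3 libraries, within the CTRL range. The share of collagen CPM held by Col9a3, Col8a1 and Col8a2 was 68.97% in T3 replicate 4 and 86.05 to 86.96% in the other 3. The higher meningeal fibroblast, mural and fibroblast marker sums of this library, given above, moved with its collagen levels, and their part was not tested.

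**Figure D3:**
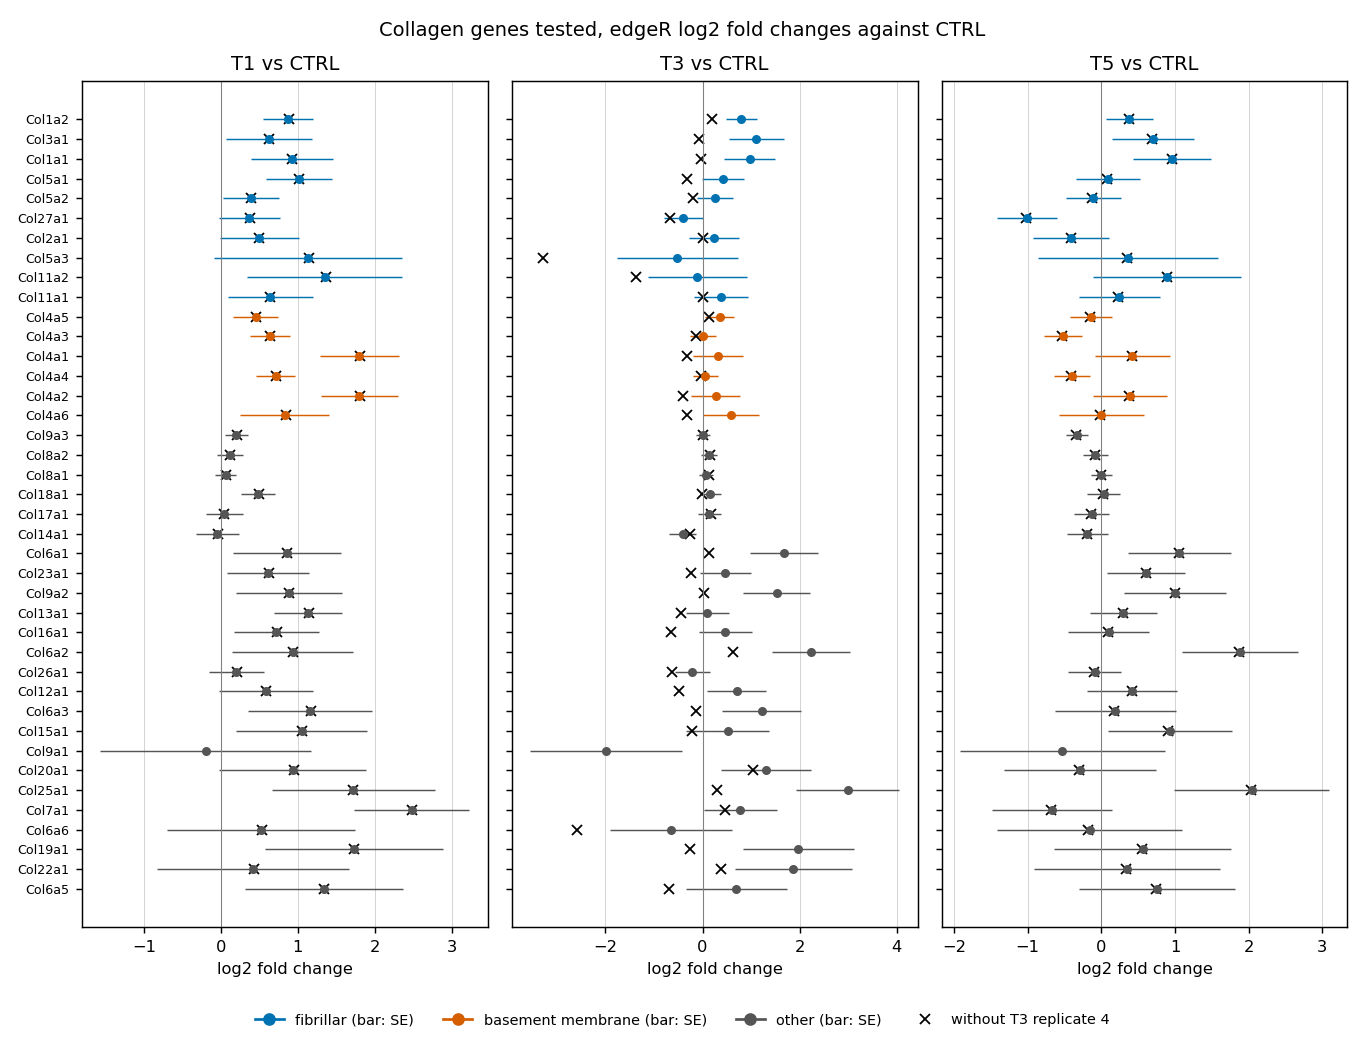
edgeR log2 fold change against CTRL for the 40 collagen genes tested, by class and in order of CTRL level, at T1, T3 and T5, with points for all libraries, bars for the approximate SE, and crosses for the fit without T3 replicate 4, in which Col9a1 was not tested. At T1 38 of 40 points lie above 0, and at T3 33 of 40 points but 15 of 39 crosses do.

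After 3 days of DSS and 2 days of water, Col27a1 and Col9a3 had lower estimates and Col6a2 a higher one, and no gene passed the test. edgeR called none of the 40 collagen genes and none of the 16851 genes (0.0%). At an unadjusted p under 0.05 it took 1 collagen gene as higher (3.89% of all genes) and 2 as lower (3.94%). DESeq2 called 16 genes (0.0991%) and limma-voom none, with no collagen gene among them. Here 23 of 40 genes were positive (54.5% of all genes), and the medians were 0.30 for fibrillar, -0.07 for type IV and 0.14 for other genes, against 0.02 over all genes. Without T3 replicate 4 they were 0.29, -0.09 and 0.17, against 0.01, and edgeR again called no gene. At an unadjusted p under 0.05 edgeR then took 5 of 39 collagen genes as higher, with 920 of 16887 genes. These were Col6a2, Col25a1, Col1a1, Col6a1 and Col9a2. It took 2 as lower, Col27a1 and Col9a3, with 806 of 16887 genes.

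Col27a1, a fibrillar collagen gene known from cartilage, was at 5.87, 5.61, 5.30, 4.97 and 4.21 CPM in the CTRL libraries, 2.04, 8.06, 11.9 and 4.74 in T1, 3.28, 4.19, 2.42 and 5.81 in T3, and 4.05, 1.42, 2.55 and 2.27 in T5. All 4 T5 libraries were below all 5 CTRL libraries, which held for 1.57% of the genes tested, with a log2 fold change of -1.01 ± 0.41 (edgeR adjusted p = 0.603). Col9a3 had a T5 estimate of -0.33 ± 0.15 (edgeR adjusted p = 0.635), and its T5 and CTRL libraries overlapped. Col6a2 had one of 1.88 ± 0.79 (edgeR adjusted p = 0.614), or 1.03 without T5 replicate 1, and T5 replicate 4 at 3.90 CPM lay within the CTRL range. Col4a3 had one of -0.52 ± 0.26 (edgeR adjusted p = 0.667). The third gene of that network, Col4a5, was at 21.7, 30.3, 43.5, 29.5 and 32.3 CPM in the CTRL libraries, 31.1, 64.6, 50.2 and 25.1 in T1, 39.01, 29.2, 35.4 and 56.8 in T3, and 36.5, 21.7, 19.4 and 36.3 in T5. Its groups overlapped in every comparison, with estimates of 0.45 ± 0.29 at T1, 0.35 ± 0.29 at T3 and -0.14 ± 0.29 at T5.

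T5 replicate 1 was the highest T5 library in 25 of the 40 genes tested, against 25.6% of all genes. It was highest in 8 of the 10 fibrillar genes. Without it the medians at T5 were -0.06 for fibrillar, -0.32 for type IV and -0.03 for other genes. Its meningeal fibroblast markers stood at 439 CPM, against 35.5 to 197 in the other T5 libraries, and its mural cell markers at 333 against 66.8 to 130.7, and their part was not tested.

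Between 1 and 3 days of DSS, the type IV genes had the lowest of the 3 class medians. Log2 fold changes from T1 to T3 were -1.52 ± 0.53 for Col4a2, -1.48 ± 0.55 for Col4a1, -0.64 ± 0.26 for Col4a4 and -0.63 ± 0.28 for Col4a3 (edgeR adjusted p = 0.577 for all 4). edgeR called none of the 40 genes and none of the 16851 (0.0%). At an unadjusted p under 0.05 it took 6 collagen genes as lower (4.63% of all genes), these 4 with Col7a1 and Col13a1, and none as higher (3.57%). The type IV median was -0.64, the fibrillar median -0.26 and that of other genes -0.07, against -0.02 over all genes. Without T3 replicate 4, 35 of 39 genes were negative (56.4% of all genes), with medians of -0.83 for fibrillar, -0.96 for type IV and -0.85 for other genes, and edgeR called 3 genes (0.0178%), none a collagen. limma-voom called 11 collagen genes as lower (24.1% of all genes called in either direction) and DESeq2 no collagen among its 24 calls (0.165%). Without the 4 libraries of high title number the type IV median was 0.13. This comparison shares the T1 libraries with T1 against CTRL, so it does not support that one independently.

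From T3 to T5, Col9a3 was the only collagen gene whose libraries did not overlap, lower at T5, as were 4.31% of the genes tested. Its log2 fold change was -0.33 ± 0.16 (edgeR adjusted p = 0.485). edgeR called none of the 40 genes and none of the 16851 (0.0%), and took no collagen gene at an unadjusted p under 0.05 as higher (4.31% of all genes) or lower (6.15%). limma-voom called none, and the 84 genes called by DESeq2 (0.52%) held no collagen. The medians were -0.35 for fibrillar, -0.48 for type IV and -0.27 for other genes, against 0.01 over all genes. Without T3 replicate 4 they were 0.31, 0.01 and 0.73, against 0.03. Without this library edgeR again called none, and at an unadjusted p under 0.05 took Col1a1 and Col5a3 as higher (9.13% of all genes) and Col9a3 as lower (4.49%).

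For Col4a1 with Col4a2 and for Col4a3 with Col4a4, the ratio within a library varied less than the levels of the chains. The ratio of the third pair, Col4a5 to Col4a6, was not computed. Col4a6 ran from 0.959 CPM in T3 replicate 3 to 11.6 in T3 replicate 4, where Col4a5 stood at 35.4 and 56.8. Col4a1 ranged 14.9-fold and Col4a2 9.55-fold over the 17 libraries, while their ratio per kb ran from 0.957 to 1.75. The group means of that ratio were 1.31 ± 0.212 in CTRL, 1.40 ± 0.338 in T1, 1.42 ± 0.109 in T3 and 1.39 ± 0.267 in T5. Col4a3 ranged 5.10-fold and Col4a4 4.53-fold, with a ratio of 1.49 to 2.32. In contrast, Col4a3 over Col4a1, 2 chains of different networks, ran from 0.485 to 3.48. It was 1.92 ± 0.973 in CTRL and 0.940 ± 0.460 in T1, and T1 replicate 1 at 1.59 lay within the CTRL range while the other T1 libraries at 0.596 to 0.926 lay below it. T3 replicate 4 at 0.821 and T5 replicates 2 and 3 at 0.585 and 0.485 also lay below every CTRL library, with group means of 1.63 ± 0.595 in T3 and 0.986 ± 0.531 in T5.

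The ratios of the type VI and type I partners varied more than those of the type IV pairs above and the type VIII pair. In the type VIII pair the levels also varied little. Col6a1 ranged 22.9-fold and Col6a2 32.9-fold, with a ratio of 1.61 to 5.16 per kb. Col1a2 over Col1a1 ran from 2.29 to 5.99, although type I collagen holds more of the Col1a1 chain than of the Col1a2 chain. T5 replicates 1, 2 and 3 had the lowest values of this ratio, at 2.45, 2.35 and 2.29, and T5 replicate 4 the second highest, at 5.70. These ratios are descriptions over libraries and were given no test. Their size depends on the joined exon lengths, 12426 bases for Col1a2, 6563 for Col1a1, 4380 for Col6a1 and 8326 for Col6a2. They therefore do not measure the proportions of the chains.

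**Figure D4:**
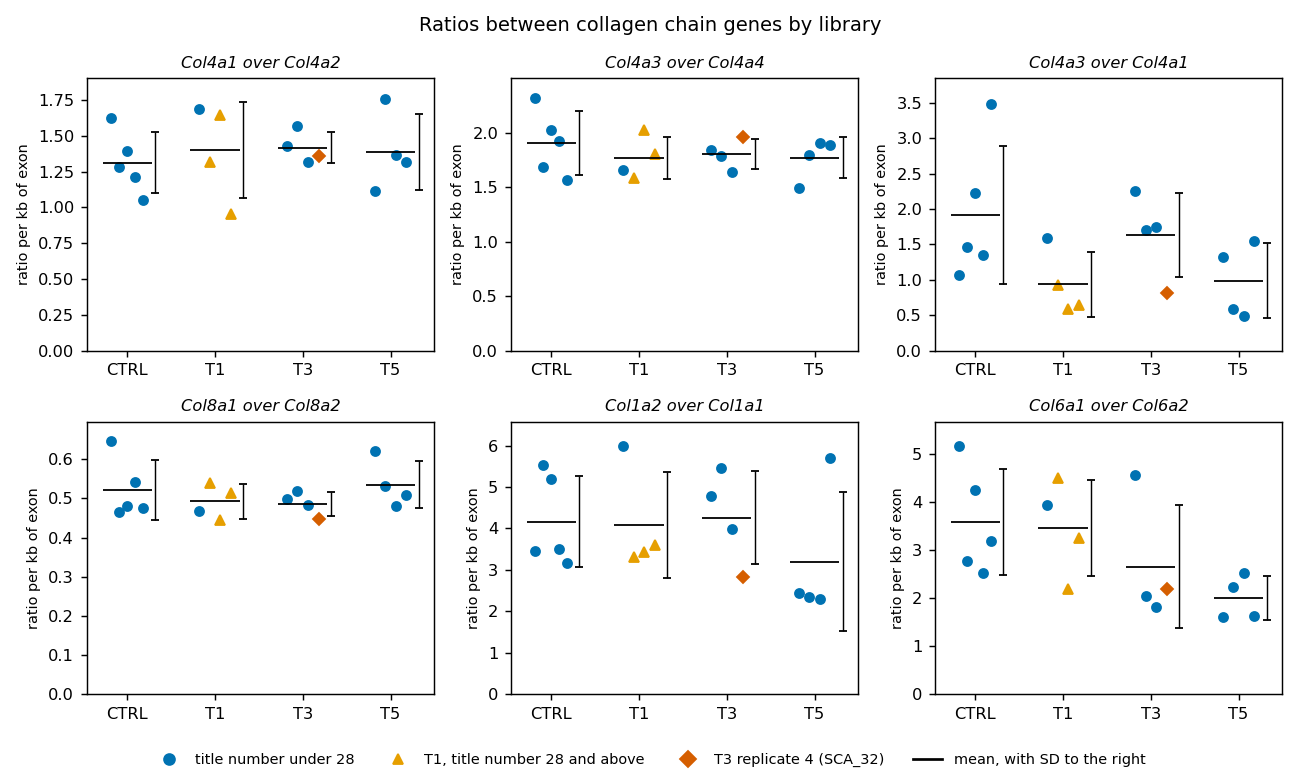
Ratios between collagen genes, each per kb of exon, in every library by group (CTRL n = 5, others n = 4), with the mean as a line and the SD as a bar to its right. The ratio of Col4a1 to Col4a2 stays between 0.957 and 1.75 and that of Col8a1 to Col8a2 between 0.445 and 0.648, while Col4a3 over Col4a1 runs from 0.485 to 3.48 with 3 T1, 1 T3 and 2 T5 libraries below every CTRL library.

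Genes that make, process, degrade or bind collagen were taken from general lists, not lists of this tissue, and edgeR called none of them in any comparison with CTRL. Of all genes tested, 57.7% were positive at T1, 52.7% at T3 and 54.5% at T5, and 44.4% at T3 without T3 replicate 4. Of 20 genes of collagen synthesis and folding in the endoplasmic reticulum, 11 were positive at T1, 12 at T3 and 13 at T5, with a median of 0.05 in each. Plod3, a lysyl hydroxylase, had a T1 estimate of 0.71 ± 0.22, and Mia3, which helps load collagen for export, one of 0.45 ± 0.16 (edgeR adjusted p = 0.138 and 0.152). Of 13 genes of propeptide cleavage and crosslinking, 9, 8 and 6 were positive, and 5 at T3 without T3 replicate 4. Pxdn, the peroxidase that crosslinks type IV collagen, had a T1 estimate of 1.33 ± 0.45 (edgeR adjusted p = 0.146). Pxdn stood at 3.37 CPM in T1 replicate 1 and at 9.90 to 17.7 in the other T1 libraries, the same order within T1 as in Col4a1. In CTRL it stood at 3.09 to 6.04 CPM, in another order of libraries than Col4a1. Adamts2, which cleaves the amino propeptide of fibrillar collagens, had a T3 estimate of 2.33 ± 1.01 (edgeR adjusted p = 0.911) and one of 0.32 without T3 replicate 4. That library was the highest of all 17 in Adamts2, which stood at 0.771 to 4.16 CPM in the other T3 libraries.

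Of the 10 degradation genes and inhibitors tested, 7, 10 and 8 were positive at T1, T3 and T5, and 6 at T3 without T3 replicate 4. Timp1, an inhibitor of matrix metalloproteinases, had a T5 estimate of 1.58 ± 0.53 (edgeR adjusted p = 0.598), with 7.94 CPM in T5 replicate 1 and 1.57 to 2.52 in the other T5 libraries, against 0.504 to 1.85 in CTRL. Ctsk, a collagen-degrading cathepsin, had one of 0.60 ± 0.25 (edgeR adjusted p = 0.604). Of the 9 collagen receptors tested, 7, 6 and 4 were positive. Without T3 replicate 4, 3 of the 9 were positive at T3, and their median went from 0.23 to -0.17. Ddr2, a receptor for fibrillar collagen, had estimates of 0.54 ± 0.20 at T1 and 0.58 ± 0.20 at T3, and Itga1, an integrin chain that binds type IV collagen, 0.74 ± 0.29 at T1 (edgeR adjusted p = 0.165, 0.911 and 0.178). The T3 estimate of Ddr2 was 0.35 without T3 replicate 4, and its T1 estimate was -0.02 with the term for the libraries of high title number. With this term the T1 estimates of Plod3, Mia3, Pxdn and Itga1 were 0.27, 0.22, -0.19 and 0.09.

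In CTRL 15 of the 44 genes had a mean under 1 CPM, and 29 of the 44 had reads in every library. Col24a1 had no read in 10 libraries and Col6a4 in 6. The 4 members that were not tested had at most 13 reads in any library. The transmembrane collagen gene Col17a1 and the fibril-associated Col14a1 were at 43.4 and 13.4 CPM in CTRL and had estimates of 0.04 ± 0.24 and -0.05 ± 0.28 at T1 (edgeR adjusted p = 0.938 and 0.922).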

How the data were processed

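Bulk RNA was sequenced from whole choroid plexus in 17 libraries. The deposited table holds unnormalised counts of reads per Ensembl gene, which the authors made with Trimmomatic 0.39, STAR 2.6.1b, featureCounts 1.6.4 and the build GRCm38, per the submitters' processing notes. Libraries were made with a SMART-Seq v4 kit, per the labels' protocols, so PCR copies count as reads. Sources used here do not give the strand setting, the annotation release or the treatment of multiply mapping reads, so reads from genes that overlap on both strands may be counted for either.

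Gene symbols, exon lengths and coordinates came from GENCODE release 21 for mouse, which held 55394 of the 55487 identifiers. edgeR 4.0.16 in R 4.3.3 tested 16851 genes with TMM scaling, a group-means model of the 17 libraries, robust quasi-likelihood F tests and Benjamini-Hochberg adjustment over all genes tested, at a threshold of 0.05. All groups share the spread, with a common dispersion of 0.141. The SE of a log2 fold change is approximate, computed as its size divided by the root of the F statistic. A counting depth of 8875921 to 26839417 limits precision for genes under 1 CPM. The script was tested on simulated data.

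Alternatives were DESeq2 1.42.0 (its test, and its size factors within edgeR), limma-voom with sample quality weights (limma 3.58.1), no filter, only the groups compared, a term for or removal of the 4 libraries of high title number, a brain marker covariate, other class members, and leaving out each library. Values per library are given for the 4 genes of each class highest per kb in CTRL, for the 4 with the smallest p in each comparison with CTRL, and for genes called in the fit of all libraries, of which there were none. Col13a1 was added after its values were seen. From the handling lists the 2 genes of smallest p are named. Groups came from the time point label. The members, classes and lists were chosen with earlier results of these data known. Promoter letters were read from RefSeq (GRCm38.p6), which had entries for 35 of the 44 genes.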

Additional observations from a re-analysis of the deposited data

Results flagged for a closer look

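Library values that lay far from the rest of their group were looked for in the 18 genes chosen by rule for values by library, by the gap to the nearest other library over the whole range of the group. Of 72 groups of values checked, 16 passed the 95% critical value, which chance passes in about 1 in 20 independent checks. The checks were not independent, because the genes share the same libraries. Some of the genes were also chosen by small p at T3, where T3 replicate 4 enters the estimate. The count of 16 can therefore not be set against that rate.

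In 9 of the 16, T3 replicate 4 was high: Col1a2 at 263 CPM, Col3a1 at 105.75, Col6a1 at 75.99, Col6a2 at 66.4, Col1a1 at 49.2, Col4a1 at 40.8, Col4a2 at 26.7, Col5a1 at 25.4 and Col25a1 at 15.9 CPM. Marker sums of this library are given with the results. In 4, CTRL replicate 1 was low: Col9a3 at 1133 CPM, Col8a1 at 373, Col8a2 at 330.4 and Col18a1 at 55.17 CPM. In T1 replicate 4, Col1a2 was high at 175 CPM and Col8a2 low at 479 CPM. In T3 replicate 1, Col9a3 was high at 1609 CPM, in a group whose other 3 libraries lay within 1510 to 1513 CPM.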

How the results depend on the processing

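Counts of called genes, class medians and the named genes were recomputed under 25 other settings. No paired analysis was possible because the replicate numbers only follow accession order and pair no samples. At T1 against CTRL, DESeq2 called 3 collagen genes (9.18% of 9001 genes) and limma-voom with sample quality weights 12 (24.2% of all genes). Leaving out 1 library at a time gave 0 to 7 collagen genes. There were 7 without T1 replicate 1, with 2203 genes called in all, and 3 without T3 replicate 4 (4.25% of 16887 genes). At T3 against T1 limma-voom called 11 (24.1% of all genes).

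Without the 4 libraries of high title number, the T1 medians of fibrillar, basement membrane and other collagens were -0.12, -0.18 and -0.26, and the log2 fold changes at T1 were -0.57 for Col4a2, -0.24 for Col4a1, -0.12 for Col4a4, -0.01 for Col3a1, -0.48 for Col18a1, -0.30 for Col4a3 and -0.11 for Col9a3. With a term for these libraries the medians were -0.41, -0.03 and -0.45, with -0.16 for Col4a2, -0.40 for Col1a1, -0.67 for Col3a1, -0.23 for Col18a1 and -0.02 for Col4a3. The T1 median of other collagens was 1.01 with limma-voom and 0.28 with the brain marker covariate. At T3, without the 4 libraries, Col1a1 was at -0.03, Col3a1 at -0.06, Col4a1 at -0.30 and Col4a2 at -0.40; with the term Col4a1 was at -0.39 and Col4a2 at -0.51, and with limma-voom at -0.06 and -0.22. From T1 to T3 without the 4 libraries, the basement membrane median was 0.13, with 0.17 for Col4a2, 0.09 for Col4a4 and 0.18 for Col4a3, and with limma-voom the median of other collagens was -0.70. From T3 to T5 that median was 0.38 with limma-voom, 0.63 without the 4 libraries and 0.49 with the term.

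Leaving out 1 library at a time, the T3 log2 fold changes ran from -0.04 to 1.22 for Col1a1, -0.08 to 1.37 for Col3a1, -0.32 to 0.52 for Col4a1 and -0.41 to 0.45 for Col4a2, each lowest without T3 replicate 4. The basement membrane median at T5 ran from -0.32, without T5 replicate 1, to 0.07. The median of other collagens ran from -0.85 to 0.02 from T1 to T3, and from -0.52 to 0.73 from T3 to T5. In each of these cases the cause was not tested.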

Other observations

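Collagen genes with reads numbered 37 to 43 per library in CTRL and 44 of 44 in T1 replicates 2 and 3 and in T3 replicate 4. Type IV genes took 3.30 to 5.05% of the collagen CPM of CTRL libraries and 3.40 to 9.06% of that of T1 libraries, with T1 replicate 3 highest. The T3 range was 3.30 to 5.55% and the T5 range 3.67 to 4.01%. Ependymal cell markers, of the ciliated cells lining the ventricle, summed to 321 to 417 CPM in CTRL and to 167 CPM in T3 replicate 4. Oligodendrocyte markers ran from 93.7 CPM in CTRL replicate 3 to 16686 CPM in T5 replicate 3.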
